A study of Mus musculus with 12 samples.

Results

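Genes of cholesterol synthesis, namely Hmgcs1, Idi1, Fdps, Fdft1, Sqle, Lss, Cyp51 and Insig1, were followed through hematopoietic stem cells (HSCs) of irradiated mice. These 8 genes were taken by gene symbol, with earlier results of these data known, from 31340 gene rows with 31272 names, and each stood on a single row. The data were RNA-seq values of 12 libraries, 3 in each of 4 groups, made from bone marrow cells of wild-type mice that had been sorted for HSCs. The groups were control (Ctrl), a sublethal dose of ionizing radiation (IR), and Ab_IR and L_IR, which were irradiated as well and whose prefixes Ab and L are not explained in the labels. Cells were sorted 3 days after IR, and the study's methods name C57BL/6 as its wild-type strain. The labels do not say that replicates came from separate mice, so p-values measure only the spread between these libraries, which may be technical. The comparisons asked how the cells differed after IR, and how the groups labelled Ab_IR and L_IR differed from IR alone.

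Animal cells make cholesterol from acetyl-CoA through the mevalonate pathway, a chain of enzymes that runs over farnesyl diphosphate, squalene and lanosterol. The early intermediates also feed prenyl groups for proteins, ubiquinone and dolichol. Transcription of nearly all of these enzymes is driven by the factor SREBP2, which the SCAP protein escorts out of the endoplasmic reticulum when sterols are scarce. Insig1 holds SCAP back when sterols are plentiful, and is itself a transcriptional target of the same factor.

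Since these genes are known as SREBP2 targets, the sequences upstream of their starts are shown first. RefSeq windows from 250 bases before to 50 bases after the start (GRCm38.p6) were at hand for Hmgcs1, Idi1, Lss, Cyp51 and Insig1. Fdps, Fdft1 and Sqle had no entry in the set of windows used here. The windows were searched on both strands for a sterol regulatory element (TCACNCCAC), the CCAAT box (CCAAT, or ATTGG when read on the other strand) and the GC box (GGGCGG, or CCGCCC). The stretches below are given from 5′ to 3′ on the strand of the gene, with matches in capitals. Hmgcs1 (chr13:119690101-119690350, plus strand) is shown because its window was the only 1 of the 5 with a match to TCACNCCAC, 137 bases before the start. Cyp51 (chr5:4104747-4104947, minus strand) is shown because it had the largest fall after IR among the 8, and Insig1 (chr5:28071162-28071362, plus strand) because it is the regulator among the enzymes.
Hmgcs1: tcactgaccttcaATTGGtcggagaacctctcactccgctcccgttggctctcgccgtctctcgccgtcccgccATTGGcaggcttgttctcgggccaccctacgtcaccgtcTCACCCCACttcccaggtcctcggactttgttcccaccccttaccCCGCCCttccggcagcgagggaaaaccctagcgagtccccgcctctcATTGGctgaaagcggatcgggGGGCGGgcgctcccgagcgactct
Cyp51: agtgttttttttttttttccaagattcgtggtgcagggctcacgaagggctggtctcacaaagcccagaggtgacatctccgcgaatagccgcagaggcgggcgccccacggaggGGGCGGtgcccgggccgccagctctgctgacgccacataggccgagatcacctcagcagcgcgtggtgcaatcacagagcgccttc
Insig1: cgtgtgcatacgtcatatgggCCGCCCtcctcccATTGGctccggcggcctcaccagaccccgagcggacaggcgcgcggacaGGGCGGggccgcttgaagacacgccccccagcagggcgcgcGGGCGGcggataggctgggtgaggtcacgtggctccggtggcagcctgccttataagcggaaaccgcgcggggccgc

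All 5 windows held a CCAAT box and a GC box. Of 32851 mouse windows of the same length, 37.4% held CCAAT, 35.7% held GGGCGG and 12.8% held both. A match to TCACNCCAC stood in 1.24% of all windows. The Hmgcs1 window had 4 CCAAT boxes, against 2 in Idi1 and 1 each in Lss, Cyp51 and Insig1. The Cyp51 stretch above shows its GC box, while its CCAAT box lay in the part of the window that is not printed. These matches are descriptions of letters in short windows and say nothing of binding in these cells.

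Values were FPKM (fragments per kilobase of gene, scaled to the library), which allow levels to be compared between genes. They hold no read counts, so the depth is unknown and intervals for counting error cannot be made. Each library summed to between 344338 and 405123 FPKM and had 11467 to 12167 genes at or above 1 FPKM. Zeros made up 44.1% of the rows in Ctrl replicate 1 but 24.7% to 27.3% elsewhere. The atrial hormone gene Nppa reached 51.2 to 63.9 FPKM in the IR group and in Ctrl replicates 2 and 3, but at most 0.26 in the other 7 libraries, so between IR and either Ab_IR or L_IR this split and the groups cannot be told apart except through Ctrl replicate 1. Immunoglobulin genes held up to 22.6% of the FPKM. Of 16 HSC markers, 6 (Ctnnal1, Fgd5, Hoxb5, Mecom, Slamf1 and Tek) stayed under 1 FPKM in all 12 libraries, including Slamf1, which encodes CD150. Among markers used to sort such cells, Kit ranged from 6.7 to 25.45 FPKM, with means of 23.5 in Ctrl and 6.87 in IR, and Ly6a, which encodes Sca-1, from 25.92 to 61.47 FPKM, with means of 35.1 and 58.6. Markers of mature blood cells were abundant, so the sorted cells are called by their label here. In such bulk samples, fewer cells of a type and less RNA per cell cannot be told apart.

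The 8 genes were expressed in all 12 libraries, at levels from 0.99 FPKM for Lss to 33.99 FPKM for Fdps. Their levels summed to 94.57 ± 6.10 FPKM in the Ctrl libraries (SD, n = 3), to 87.02 ± 2.56 after IR alone, and to 71.79 ± 1.80 and 67.55 ± 1.18 in Ab_IR and L_IR. The sums of Ctrl (89.43 to 101.3) lay above those of IR (84.1 to 88.87), and both lay above all Ab_IR and L_IR libraries (66.81 to 73.63). Fdps weighs most in these sums, with means of 28.9, 33.1, 23.73 and 21.15 FPKM in Ctrl, IR, Ab_IR and L_IR. The genes did not share one pattern. Sqle and Cyp51 were already low in IR, Fdps was lower in Ab_IR and L_IR than in IR, and Lss was lowest in Ab_IR.

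**Figure D1:**
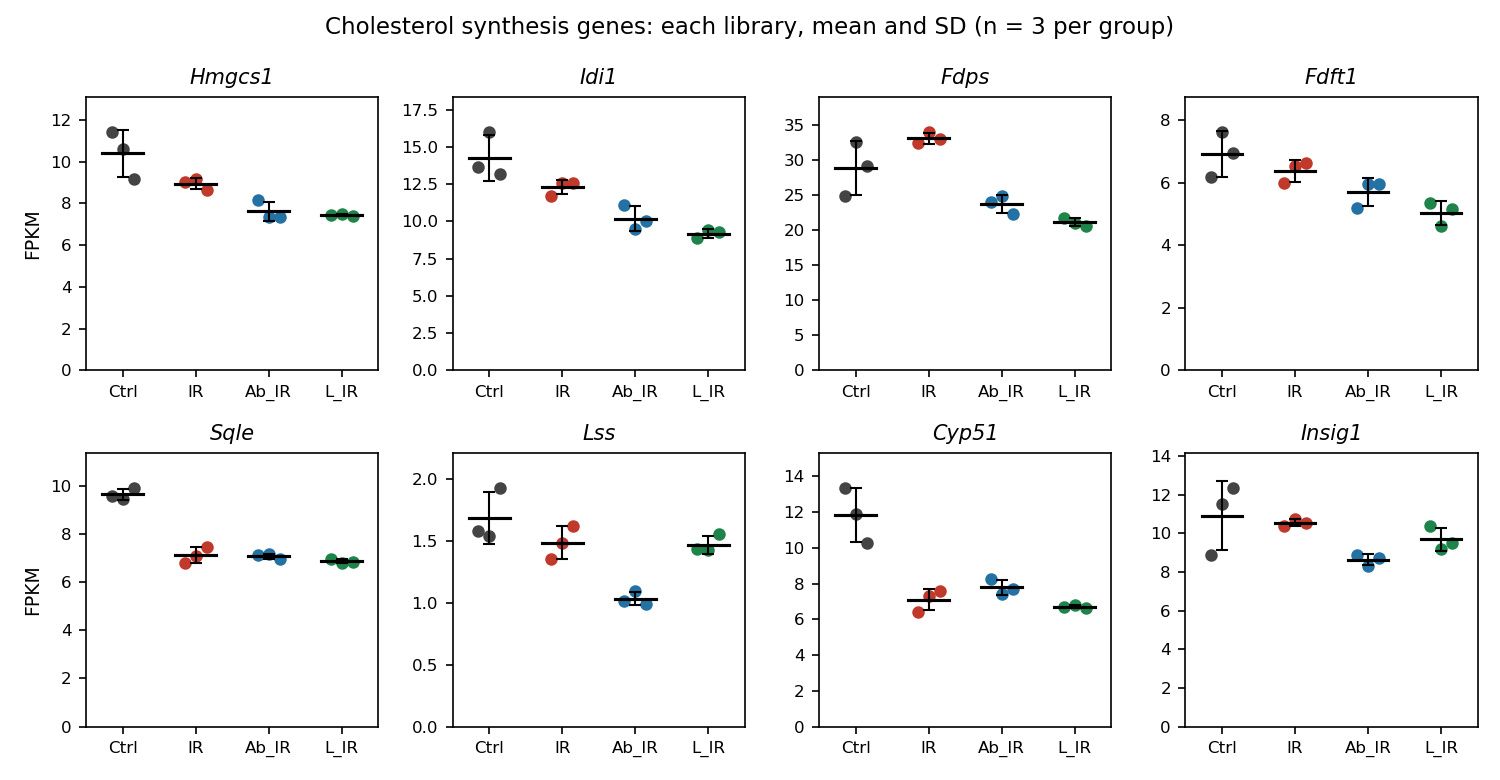
FPKM of the 8 genes (y axis, 1 panel per gene, linear scale from 0) in the 4 groups (x axis). Points are libraries and the bar and whiskers are the mean and SD of 3 libraries; Sqle and Cyp51 drop between Ctrl and IR, while Fdps drops from about 33.1 FPKM in IR to 23.7 in Ab_IR and 21.2 in L_IR.

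Hmgcs1 (chromosome 13, 119690379 to 119708260 in GRCm38) encodes the cytosolic synthase that makes HMG-CoA, an early intermediate of the chain. It was at 11.41, 10.61 and 9.19 FPKM in Ctrl, 9.04, 9.15 and 8.63 in IR, 8.15, 7.34 and 7.36 in Ab_IR, and 7.43, 7.48 and 7.39 in L_IR. Ctrl libraries were the highest and IR libraries lay between them and the rest without overlap, whereas Ab_IR and L_IR overlapped. Idi1 (chromosome 13, 8885501 to 8892451) encodes the isomerase that interconverts isopentenyl and dimethylallyl diphosphate. It was at 13.63, 16 and 13.16 FPKM in Ctrl, 11.74, 12.56 and 12.62 in IR, 11.08, 9.48 and 10.03 in Ab_IR, and 8.86, 9.41 and 9.28 in L_IR. Idi1 was the only gene of the 8 whose 4 groups followed each other in the order Ctrl, IR, Ab_IR, L_IR with no overlap between any neighbours.

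Fdps (chromosome 3, 89093588 to 89101959) encodes farnesyl diphosphate synthase, at the branch point between sterols and prenylation, and had the highest level of the 8. It was at 24.83, 32.62 and 29.23 FPKM in Ctrl, 32.39, 33.99 and 33.02 in IR, 23.96, 24.9 and 22.33 in Ab_IR, and 21.81, 21.04 and 20.6 in L_IR. It was the only member with its highest mean in IR, and all IR libraries lay above all Ab_IR and L_IR libraries. Ctrl replicate 1 was the low Ctrl library and overlapped Ab_IR. Fdft1 (chromosome 14, 63145150 to 63179578) encodes squalene synthase, the first step committed to sterols. It was at 6.18, 7.62 and 6.97 FPKM in Ctrl, 5.98, 6.54 and 6.63 in IR, 5.19, 5.97 and 5.96 in Ab_IR, and 5.34, 4.61 and 5.15 in L_IR. Ctrl overlapped IR and Ab_IR overlapped L_IR, while the highest Ab_IR library lay just under the lowest IR library.

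The later enzymes act on squalene and lanosterol. Sqle (chromosome 15, 59315077 to 59331192) encodes squalene epoxidase, an oxygen-dependent step that limits flux into sterols. It was at 9.57, 9.47 and 9.89 FPKM in Ctrl, 6.81, 7.09 and 7.46 in IR, 7.11, 7.16 and 6.94 in Ab_IR, and 6.96, 6.8 and 6.84 in L_IR. All Ctrl libraries lay above all others, and the 3 irradiated groups overlapped. Cyp51 (chromosome 5, 4081145 to 4104746), which encodes the demethylase of lanosterol, was at 13.33, 11.92 and 10.27 FPKM in Ctrl, 6.42, 7.33 and 7.57 in IR, 8.27, 7.44 and 7.68 in Ab_IR, and 6.71, 6.83 and 6.62 in L_IR. It too was highest in all Ctrl libraries, and among the irradiated groups Ab_IR lay above L_IR without overlap. Lss (chromosome 10, 76531588 to 76557138) encodes lanosterol synthase, which closes the sterol rings, and had the lowest level of the 8. It was at 1.58, 1.54 and 1.92 FPKM in Ctrl, 1.35, 1.48 and 1.62 in IR, 1.01, 1.09 and 0.99 in Ab_IR, and 1.43, 1.42 and 1.55 in L_IR. The Ab_IR libraries were below the other 9, which overlapped.

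Insig1 (chromosome 5, 28071363 to 28078662), the sterol-sensing retention factor, was at 8.9, 11.53 and 12.33 FPKM in Ctrl, 10.37, 10.73 and 10.54 in IR, 8.86, 8.33 and 8.74 in Ab_IR, and 10.37, 9.22 and 9.5 in L_IR. The Ab_IR libraries were again the lowest, with Ctrl replicate 1 next to them, and the other groups overlapped. Over the 12 libraries, the 28 pairs of these 8 genes had Pearson's r of log2(FPKM + 1) from 0.206 (Cyp51 and Insig1) to 0.932 (Sqle and Cyp51), with a median of 0.62, and 18 pairs were over 0.5. The points share their library and its scaling, so these are descriptions only. Idi1 was closest to the mean profile of the 8 (r = 0.943) and Lss farthest from it (r = 0.681). Among 4709 genes outside the lists with a mean of at least 10 FPKM, the most like that profile were Ighv7-4 (r = 0.923), Esyt2 (0.91), Fosb (0.886), Olr1 (0.878), Ddx3y (0.873), Lims1 (0.858), Tmx1 (0.853), Ckap2l (0.85) and Sde2 (0.85). Fosb, an immediate early gene, had means of 124.8, 85.09, 77.02 and 65.77 FPKM in Ctrl, IR, Ab_IR and L_IR.

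Between IR and Ctrl, Cyp51 and Sqle were lower in IR and the other 6 genes did not pass the test. All tests were made with limma on log2(FPKM + 1) over all genes with at least 1 FPKM in 3 of the libraries compared, which all 8 genes did in every comparison, and adjusted by Benjamini-Hochberg over all genes tested. The differences of group means, given as log2 changes, are on this scale, where changes of low genes such as Lss come out too small. The largest rises and falls within a list, given further on, are ranked on it. Cyp51 went from 11.8 ± 1.53 to 7.11 ± 0.607 FPKM, 60.0% of the Ctrl mean (log2 change -0.66, SE 0.109, adjusted p = 0.004002). Sqle went from 9.64 ± 0.219 to 7.12 ± 0.326 FPKM, 73.8% of the Ctrl mean (log2 change -0.39, SE 0.0627, adjusted p = 0.00359). Both falls were larger than the spread of their libraries, which did not overlap. The share of all genes without overlap was not counted in any comparison, so statements on overlap are descriptions.

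Hmgcs1 and Idi1 were at 85.9% and 86.3% of the Ctrl mean, and neither passed (log2 change -0.19, SE 0.0875, adjusted p = 0.122 for Hmgcs1, and -0.19, SE 0.0868, adjusted p = 0.119 for Idi1), although their libraries did not overlap. Fdps was the only gene with a positive value, at 115% of Ctrl (log2 change 0.20, SE 0.102, adjusted p = 0.165). Fdft1 (-0.10, adjusted p = 0.41), Lss (-0.11, adjusted p = 0.405) and Insig1 (-0.03, adjusted p = 0.836) were close to Ctrl. The count of 2 of 8 lower stands beside 25.5% of the 12072 genes tested that were lower in IR at an adjusted p under 0.05, so this share is that of the whole table. No member was higher, against 17.5% of all genes, and none was higher at an unadjusted p under 0.05, against 21.3%. Their median log2 fold change was -0.15, against -0.05 for all genes. In no comparison did any of the 8 pass with a change of more than 1 on the log2 scale, which 7.60% of genes did here.

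Single Ctrl libraries decided some of these calls. Without Ctrl replicate 1, which also removes the Nppa split from this comparison, Insig1 passed as lower (-0.16, adjusted p = 0.0365). Without Ctrl replicate 2 Fdps passed as higher (0.29, adjusted p = 0.0473), and without Ctrl replicate 3 Hmgcs1 passed as lower (-0.27, adjusted p = 0.031). Cyp51 and Sqle passed whichever library was left out.

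Of 15 other synthesis enzymes, 2 were higher and 3 lower in IR (median -0.14), beside 17.5% higher and 25.5% lower of all genes. Mvd, the decarboxylase that makes isopentenyl diphosphate, had the largest rise, from 5.23, 6.99 and 8.01 FPKM in Ctrl to 11.56, 11.65 and 11.82 in IR (log2 change 0.73, adjusted p = 0.00649). Dhcr7, the reductase of the last step, had the largest fall (-0.45, adjusted p = 0.0109). Among 11 genes that control SREBP processing, 2 rose and 2 fell (median -0.08). Their largest rise was that of Ubxn8 (0.32, adjusted p = 0.00632) and their largest fall that of Rnf139, a ubiquitin ligase of the endoplasmic reticulum (-0.56, adjusted p = 0.0035). Scap rose (0.28, adjusted p = 0.0313), while Srebf2, which encodes SREBP2 (-0.22, adjusted p = 0.109), and Insig2 (-0.18, adjusted p = 0.314) did not pass. Of the 13 of 15 uptake and transport genes that could be tested, 3 rose and 4 fell (median 0.05). Mylip, a ubiquitin ligase, fell (-0.67, adjusted p = 0.00696), the largest fall was in Npc2, a lysosomal cholesterol carrier (-0.74, adjusted p = 0.000397), and the largest rise was in Lrp1, an endocytic receptor (0.96, adjusted p = 0.000875).

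Cell type markers moved between the same groups. The sum of 9 erythroid markers was 3069 to 3545 FPKM in Ctrl, 478 to 490 in IR, 2914 to 3133 in Ab_IR and 1466 to 1524 in L_IR. That of 13 neutrophil and monocyte markers was 11062 to 12846, 16484 to 16753, 12003 to 12587 and 8864 to 9084 FPKM in the same order, and that of 11 B and plasma cell markers 10060 to 13274, 17444 to 18660, 17877 to 18505 and 25608 to 26480. Sums of 6 megakaryocyte and platelet markers (52.9 to 68.4, 12.3 to 14.2, 139 to 143 and 85.3 to 91.5) and of 6 mast cell and basophil markers (581 to 664, 206 to 214, 776 to 827 and 479 to 503) were, like the erythroid sum, lowest in IR. The 16 HSC markers summed to 86.6 to 93.9, 73.1 to 80.6, 83.8 to 91.3 and 91.0 to 92.0 FPKM. The sums were 66.1 to 73.2, 43.4 to 49.5, 69.8 to 77.0 and 62.4 to 69.3 for 9 macrophage markers, 159 to 265, 213 to 218, 276 to 285 and 232 to 241 for 6 T and NK cell markers, 144 to 175, 22.2 to 24.0, 52.8 to 57.1 and 54.0 to 56.1 for 7 stroma and bone markers, and 0.26 to 144, 117 to 149, 0.35 to 0.59 and 0.29 to 0.48 for 8 heart muscle markers. No list had a marker at 0 in all 12 libraries. Their part in the differences of the 8 genes was not tested.

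Between Ab_IR and IR, 5 of the 8 genes were lower in Ab_IR, namely Fdps, Lss, Insig1, Idi1 and Hmgcs1. Fdps fell from 33.1 ± 0.806 to 23.7 ± 1.30 FPKM (log2 change -0.47, SE 0.0471, adjusted p = 9.61e-05), to 71.6% of the IR mean. Lss fell from 1.48 ± 0.135 to 1.03 ± 0.0529 FPKM, 69.4% of the IR mean (-0.29, SE 0.0644, adjusted p = 0.00525). Insig1 fell from 10.5 ± 0.180 to 8.64 ± 0.278 FPKM (-0.26, SE 0.0403, adjusted p = 0.0008715). In each of these the 3 Ab_IR libraries lay below the 3 IR libraries.

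Idi1 fell from 12.3 ± 0.492 to 10.2 ± 0.813 FPKM (-0.25, SE 0.0609, adjusted p = 0.00786) and Hmgcs1 from 8.94 ± 0.274 to 7.62 ± 0.462 FPKM (-0.21, SE 0.0515, adjusted p = 0.00879), again with no overlap. Fdft1 did not pass (-0.14, SE 0.0643, adjusted p = 0.0892, but -0.277 and adjusted p = 0.00636 after rescaling without immunoglobulin genes), nor did the pair of genes that were lower in IR than in Ctrl, Sqle (-0.01, SE 0.0452, adjusted p = 0.881) and Cyp51 (0.12, SE 0.067, adjusted p = 0.15). The count of 5 of 8 stands beside 29.4% of 12067 genes that were lower in Ab_IR. None of the 8 was higher, against 39.4% of all genes, and none was higher at an unadjusted p under 0.05, against 40.8%. Their median was -0.23 against 0.06 for all genes, while 7.57% of genes passed with a change above 1. The 5 genes passed whichever library was left out.

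The Nppa split bears on this comparison and the next. With that split as a term in a fit of all 12 libraries, where the split rests on Ctrl replicate 1 alone, only Hmgcs1 of the 8 was lower in Ab_IR than in IR. The values of the others were then -0.17 for Idi1 (adjusted p = 0.285), -0.16 for Fdps (adjusted p = 0.149), -0.21 for Lss (adjusted p = 0.157) and 0.12 for Insig1. Rescaling the libraries without immunoglobulin genes shifted the median of all genes by -0.121 between Ab_IR and IR, and the members' median relative to all genes was -0.29 before and -0.31 after it. The share of passing genes that were higher in Ab_IR went from 57.3% to 42.0% under that rescaling and to 47.1% under quantile normalization.

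**Figure D2:**
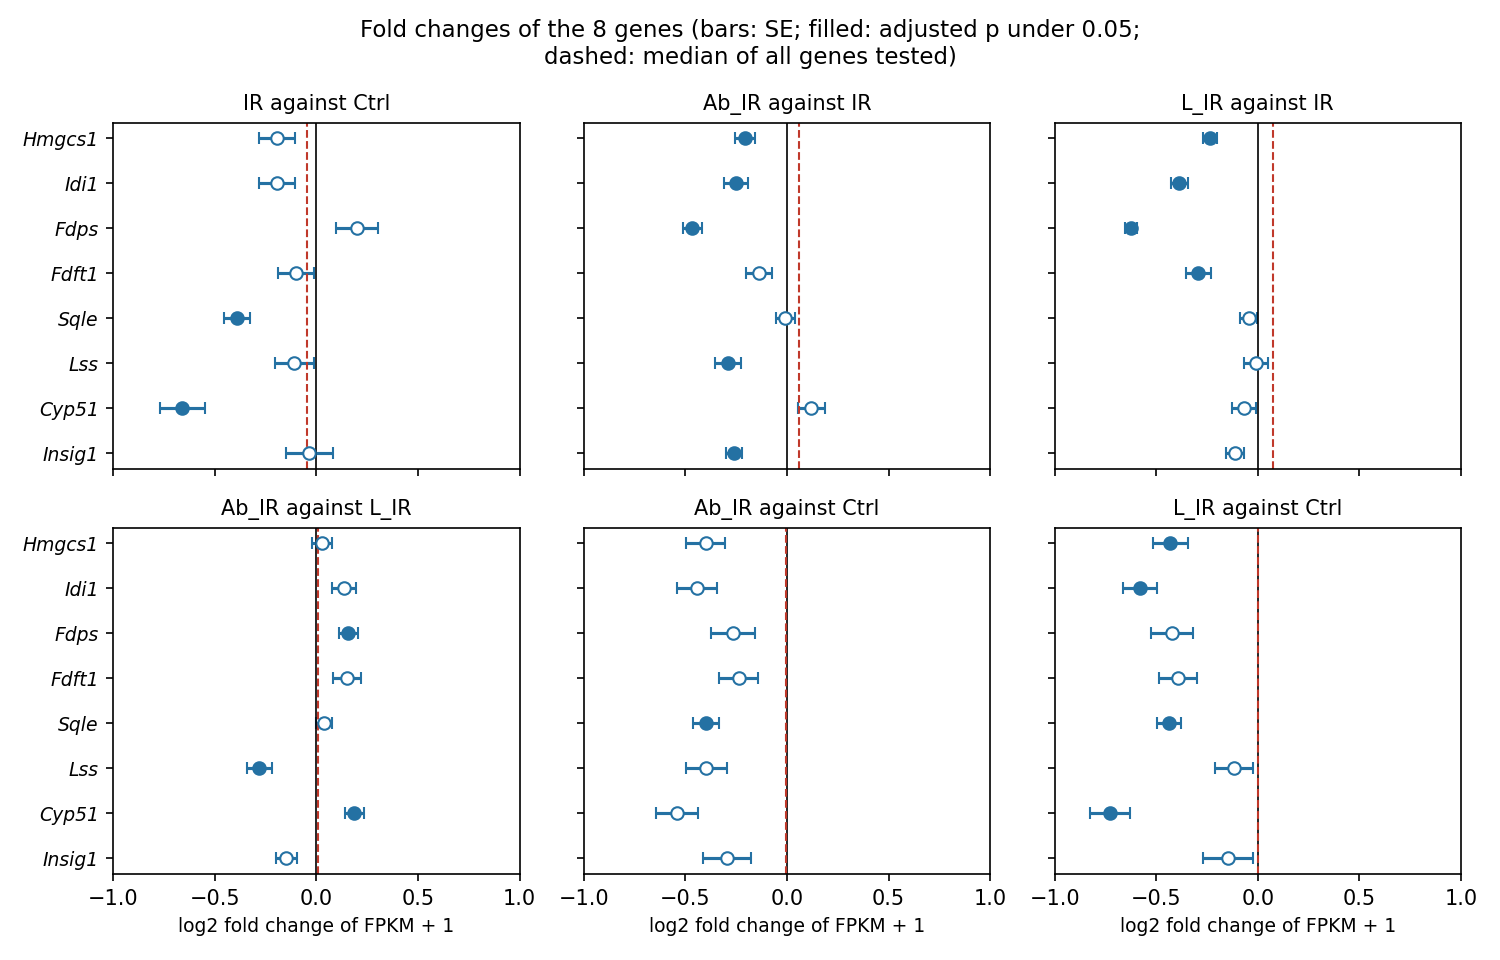
Log2 fold change on the log2(FPKM + 1) scale (x axis) of the 8 genes (y axis) in 6 comparisons, 1 per panel, with bars for ± 1 SE. Filled points have an adjusted p under 0.05 and the dashed line is the median of all genes tested; the points of Fdps lie at -0.47 and -0.62 in Ab_IR and L_IR against IR, and those of Sqle and Cyp51 lie left of the line in IR against Ctrl.

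The 15 other synthesis enzymes held 6 that were lower in Ab_IR and 4 that were higher (median -0.10), beside 29.4% lower and 39.4% higher of all genes. Mvd fell most, from 11.56 to 11.82 FPKM in IR to 5.65 to 6.53 in Ab_IR (log2 change -0.84, adjusted p = 9.23e-06). The largest rise was in Pmvk, a kinase of the mevalonate steps (0.51, adjusted p = 2.93e-05). Of the 11 control genes, 4 fell and 2 rose (median -0.05), Ubxn8 with the largest fall (-0.38, adjusted p = 4.39e-05) and Rnf139 with the largest rise (0.60, adjusted p = 7.125e-05). Scap fell (-0.33, adjusted p = 0.00171), and Srebf2 (-0.05, adjusted p = 0.361) and Insig2 (-0.05, adjusted p = 0.459) did not pass. Of 13 uptake and transport genes, 6 fell and 2 rose (median -0.12). Lrp1 fell most (-0.86, adjusted p = 8.94e-06), while Npc2 had the largest rise (0.90, adjusted p = 2.29e-06) and Mylip rose too (0.55, adjusted p = 0.00594).

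Between L_IR and IR, 4 of the 8 genes were lower in L_IR, namely Fdps, Idi1, Fdft1 and Hmgcs1. The IR libraries are shared with the comparison above, so both sets of values rest on the same 3 libraries. Fdps fell from 33.1 ± 0.806 to 21.2 ± 0.612 FPKM (log2 change -0.62, SE 0.0319, adjusted p = 4.97e-06) and Idi1 from 12.3 ± 0.492 to 9.18 ± 0.287 FPKM (-0.39, SE 0.0404, adjusted p = 0.000156). Fdft1 fell from 6.38 ± 0.352 to 5.03 ± 0.379 FPKM (-0.29, SE 0.0605, adjusted p = 0.00443) and Hmgcs1 from 8.94 ± 0.274 to 7.43 ± 0.0451 FPKM (-0.24, SE 0.0344, adjusted p = 0.000794). In each of the 4 the L_IR libraries lay below the IR libraries. All 4 encode enzymes from HMG-CoA synthesis to squalene, but that stretch was not lower as a whole. The kinases Mvk and Pmvk, which act within it, were at 100.6% and 115.5% of the IR mean, and Mvd was at 55.3%.

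Insig1 (-0.11, SE 0.0459, adjusted p = 0.067), Cyp51 (-0.07, SE 0.0582, adjusted p = 0.337), Sqle (-0.05, SE 0.0404, adjusted p = 0.358) and Lss (-0.01, SE 0.0614, adjusted p = 0.908) did not pass. The count of 4 of 8 stands beside 26.0% of 12163 genes lower in L_IR. None of the 8 was higher, against 40.8% of all genes, and none was higher at an unadjusted p under 0.05, against 42.4%. All 8 values were below 0, with a median of -0.17 against 0.07 for all genes, and 6.22% of genes passed with a change above 1. Without L_IR replicate 1 Insig1 passed as well (-0.16, adjusted p = 0.0114), and without IR replicate 1 Cyp51 did (-0.13, adjusted p = 0.0326). Under quantile normalization all 8 passed as lower, and the share of passing genes that were higher went from 61.0% to 48.9%. With the Nppa split as a term, Hmgcs1, Fdps and Cyp51 (-0.32, adjusted p = 0.0467) were lower and Insig1 was higher (0.27, adjusted p = 0.0213), while Idi1 (-0.30, adjusted p = 0.0708) and Fdft1 (-0.09, adjusted p = 0.576) no longer passed.

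Of the 15 other synthesis enzymes, 8 were lower in L_IR than in IR and 3 higher (median -0.14), beside 26.0% lower and 40.8% higher of all genes. Msmo1, the methyl sterol oxidase that acts after Cyp51, fell most (-0.83, adjusted p = 6.16e-06), and Dhcr7 had the largest rise (0.30, adjusted p = 0.00145). Of the 11 control genes, 1 fell and 3 rose (median -0.06), Ubxn8 being the fall (-0.40, adjusted p = 0.000359) and Rnf139 the largest rise (0.51, adjusted p = 6.07e-05). Srebf2 (-0.08, adjusted p = 0.0799), Scap (-0.06, adjusted p = 0.2615) and Insig2 (-0.12, adjusted p = 0.134) did not pass. Of 13 uptake and transport genes, 6 fell and 3 rose (median -0.09). Lrp1 had the largest fall (-0.45), Npc2 the largest rise (0.61, adjusted p = 5.31e-06), and Mylip rose (0.46, adjusted p = 0.00372).

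**Figure D3:**
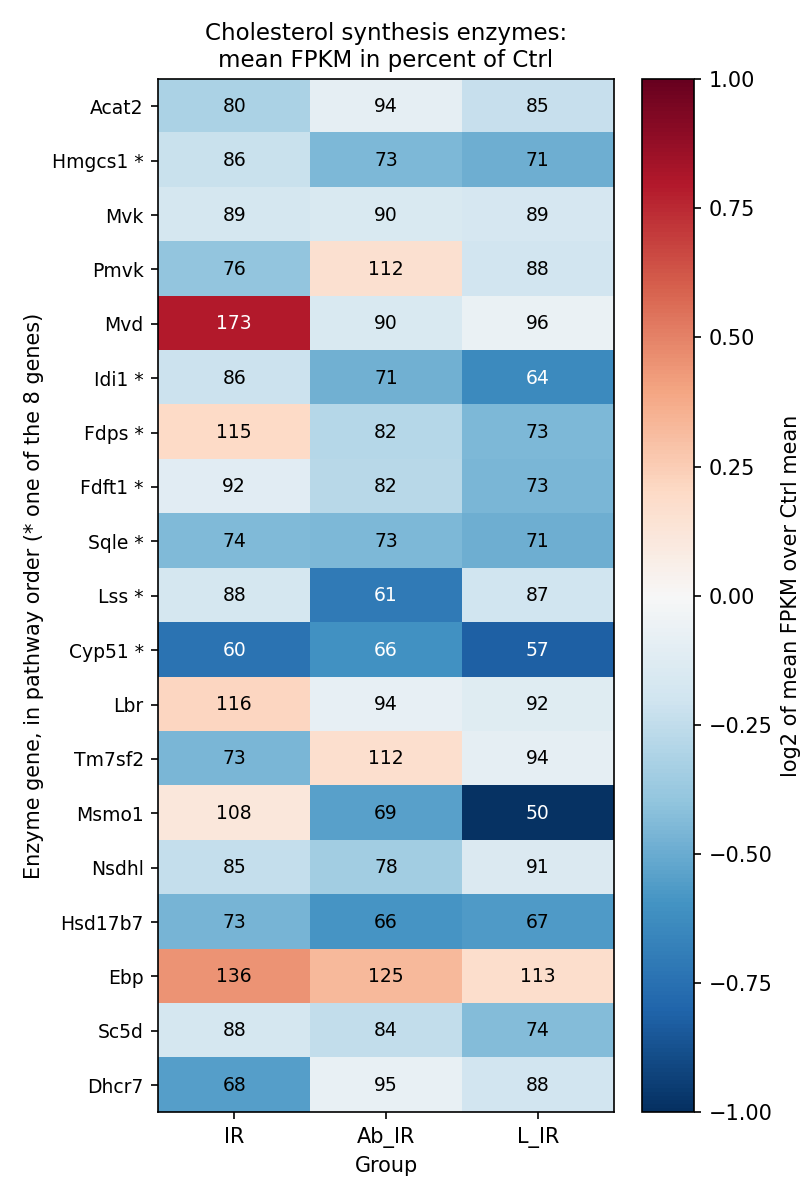
Mean FPKM of synthesis enzymes (rows, in pathway order, with an asterisk for the members) in IR, Ab_IR and L_IR (columns), each in percent of the Ctrl mean. Each cell prints its percentage, and its colour is the log2 of that ratio, blue below and red above Ctrl; Cyp51 and Sqle are low in all 3 columns (56.8 to 65.9 and 71.2 to 73.8), while Fdps goes from 115 in IR to 82.1 and 73.2.

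Ab_IR and L_IR, which lie on the same side of the Nppa split, differed less. Lss was lower in Ab_IR than in L_IR (1.03 ± 0.0529 against 1.47 ± 0.0723 FPKM, log2 fold change -0.28, SE 0.0617, adjusted p = 0.0111). Cyp51 (7.80 ± 0.427 against 6.72 ± 0.105 FPKM, 0.19, SE 0.0479, adjusted p = 0.0197) and Fdps (23.7 ± 1.30 against 21.2 ± 0.612 FPKM, 0.16, SE 0.0489, adjusted p = 0.0397) were higher in Ab_IR. The libraries of both groups did not overlap in any of the 3 genes, a description for which the share of all genes was not counted.

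Insig1 (-0.15, SE 0.0524, adjusted p = 0.0605), Idi1 (0.13, SE 0.0594, adjusted p = 0.113), Fdft1 (0.15, SE 0.0695, adjusted p = 0.124), Sqle (0.04, SE 0.0383, adjusted p = 0.482) and Hmgcs1 (0.03, SE 0.049, adjusted p = 0.663) did not pass. The counts of 1 lower and 2 higher stand beside 19.8% lower and 18.2% higher of 12194 genes, shares close to those of the members, and 0.533% of genes passed with a change above 1. The median of the 8 was 0.09 against 0.01 for all genes. Lss passed whichever library was left out. Fdps was lost without any one of Ab_IR replicate 1 (adjusted p = 0.0851), Ab_IR replicate 2 (0.0996), L_IR replicate 1 (0.0608), L_IR replicate 2 (0.105) or L_IR replicate 3 (0.127). Cyp51 was lost without L_IR replicate 1 (adjusted p = 0.0589) or 3 (0.069), and Fdft1 passed without Ab_IR replicate 1 (0.21, adjusted p = 0.0498). Rescaling without immunoglobulin genes shifted the median of all genes by -0.119 and took the share of passing genes that were higher from 47.9% to 16.1%. Neither Fdps nor Cyp51 passed under it, whereas Insig1 passed as lower in Ab_IR (-0.283, adjusted p = 0.00653).

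Of 15 other synthesis enzymes, 3 were higher in Ab_IR than in L_IR and 3 lower (median 0.04), shares close to the 18.2% and 19.8% of all genes. Pmvk had the largest difference upwards (0.32, adjusted p = 0.0015). Of 11 control genes, 1 was higher and 2 were lower, with the largest difference in Scap (-0.27, adjusted p = 0.0189), and the median was -0.0011. Srebf2 (0.03, adjusted p = 0.641) and Insig2 (0.06, adjusted p = 0.33) did not pass. Of 13 uptake and transport genes, 1 was higher (Npc2, 0.29, adjusted p = 0.00183) and 4 were lower (median -0.07), the largest fall being in Lrp8 (-0.46, adjusted p = 0.000484). Mylip (0.08, adjusted p = 0.569) did not pass.

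**Figure D4:**
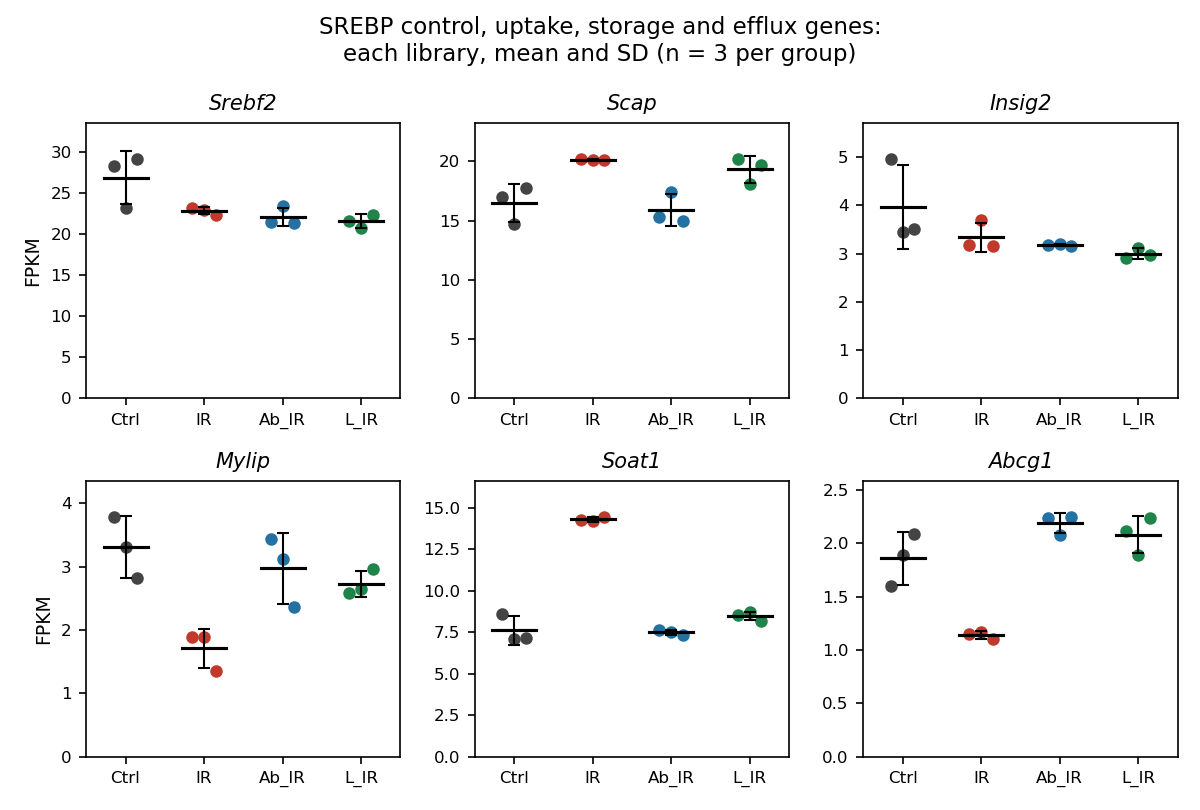
FPKM (y axis, linear scale from 0) of Srebf2, Scap, Insig2, Mylip, Soat1 and Abcg1, 1 per panel, in the 4 groups (x axis), with libraries as points and the mean and SD as bar and whiskers. Mylip sits at 1.36 to 1.89 FPKM in IR, below the 9 other libraries (2.36 to 3.79), while Soat1 sits at 14.2 to 14.47 FPKM in IR and at 7.1 to 8.7 elsewhere.

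Against Ctrl, all 8 genes had lower means in Ab_IR and in L_IR. These comparisons share the Ctrl libraries, which had the largest SD of the 4 groups for all members but Sqle. In Ab_IR the values were -0.54 for Cyp51 (SE 0.103, adjusted p = 0.0597), -0.44 for Idi1 (SE 0.0987, adjusted p = 0.0901), -0.40 for Hmgcs1 (SE 0.0952, adjusted p = 0.109), -0.40 for Lss (SE 0.101, adjusted p = 0.119), -0.29 for Insig1 (SE 0.12, adjusted p = 0.23), -0.27 for Fdps (SE 0.11, adjusted p = 0.234) and -0.24 for Fdft1 (SE 0.0968, adjusted p = 0.23). Sqle alone passed, at 73.3% of Ctrl (-0.40, SE 0.0633, adjusted p = 0.0301). Few genes of the whole table passed here, 0.651% of 12134 as lower, 1.45% as higher and 0.923% with a change above 1. At an unadjusted p under 0.05, all 8 members were lower and none was higher, against 11.4% and 9.45% of all genes. The median of the members was -0.40 against -0.0041 for all genes.

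The call of Sqle was lost when Ctrl replicate 2 (adjusted p = 0.0676), Ctrl replicate 3 (0.113), Ab_IR replicate 1 (0.169), Ab_IR replicate 2 (0.207) or Ab_IR replicate 3 (0.199) was left out. Without Ctrl replicate 1, in contrast, 5 members passed as lower, Insig1 (-0.42, adjusted p = 0.0138), Cyp51 (-0.46, adjusted p = 0.0271), Fdps (-0.37, adjusted p = 0.0424), Idi1 (-0.47, adjusted p = 0.046) and Sqle. Ctrl replicate 1 is the only Ctrl library on the Ab_IR side of the Nppa split, so without it the split and the groups cannot be told apart.

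In L_IR, Idi1 was at 64.4% of the Ctrl mean (log2 change -0.58, SE 0.086, adjusted p = 0.0104), Sqle at 71.2% (-0.44, SE 0.0579, adjusted p = 0.00653), Cyp51 at 56.8% (-0.73, SE 0.097, adjusted p = 0.00664) and Hmgcs1 at 71.5% (-0.43, SE 0.0861, adjusted p = 0.0309), and all 4 passed as lower. Their L_IR libraries lay below all Ctrl libraries. Fdft1 (-0.39, SE 0.0935, adjusted p = 0.0538), Fdps (-0.42, SE 0.103, adjusted p = 0.057), Lss (-0.12, SE 0.0941, adjusted p = 0.489) and Insig1 (-0.15, SE 0.122, adjusted p = 0.503) did not pass. The count of 4 of 8 stands beside 4.08% of 12251 genes that were lower and 4.76% that were higher, and 2.65% of genes passed with a change above 1. At an unadjusted p under 0.05, 6 members were lower, against 12.7% of all genes, and none was higher, against 1475 of the 12251 genes. The median of the members was -0.43 against 0.00028 for all genes.

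Without Ctrl replicate 1, Fdps (-0.53, adjusted p = 0.0025), Fdft1 (-0.46, adjusted p = 0.00976) and Insig1 (-0.27, adjusted p = 0.0347) joined, which left only Lss without a call. As in Ab_IR, the groups and the Nppa split then coincide and cannot be told apart, and with the split as a term over all 12 libraries Insig1 was at 0.11. Without Ctrl replicate 2, Hmgcs1 was lost (adjusted p = 0.0857). Leaving out any one L_IR replicate left only Cyp51, with adjusted p = 0.0587 to 0.0721 for Idi1, 0.0532 to 0.062 for Sqle and 0.14 to 0.148 for Hmgcs1.

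Of the 15 other synthesis enzymes, 1 was lower in Ab_IR than in Ctrl and 3 were lower in L_IR, beside 0.651% and 4.08% of all genes. In L_IR, Msmo1 fell the most (-0.73, adjusted p = 0.00272). None of the 15 was higher in either comparison, also at an unadjusted p under 0.05, and the medians were -0.12 and -0.13. None of the 11 control genes passed in either comparison with limma, against 1 at an unadjusted p under 0.05 in Ab_IR (lower) and 2 in L_IR (1 higher and 1 lower). Srebf2 (-0.27, adjusted p = 0.212 and -0.30, adjusted p = 0.121), Scap (-0.05, adjusted p = 0.779 and 0.22, adjusted p = 0.189) and Insig2 (-0.24, adjusted p = 0.316 and -0.30, adjusted p = 0.213) were among them, and the medians were -0.06 and -0.08. Of 13 uptake and transport genes, 1 fell in Ab_IR, whereas in L_IR 2 fell, Stard4 among them (-0.42, adjusted p = 0.0196), and Lrp1 rose (0.51, adjusted p = 0.0335), with medians of -0.08 and 0.04. Mylip did not pass in Ab_IR (-0.12, adjusted p = 0.6005) or L_IR (-0.20, adjusted p = 0.2915).

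**Figure D5:**
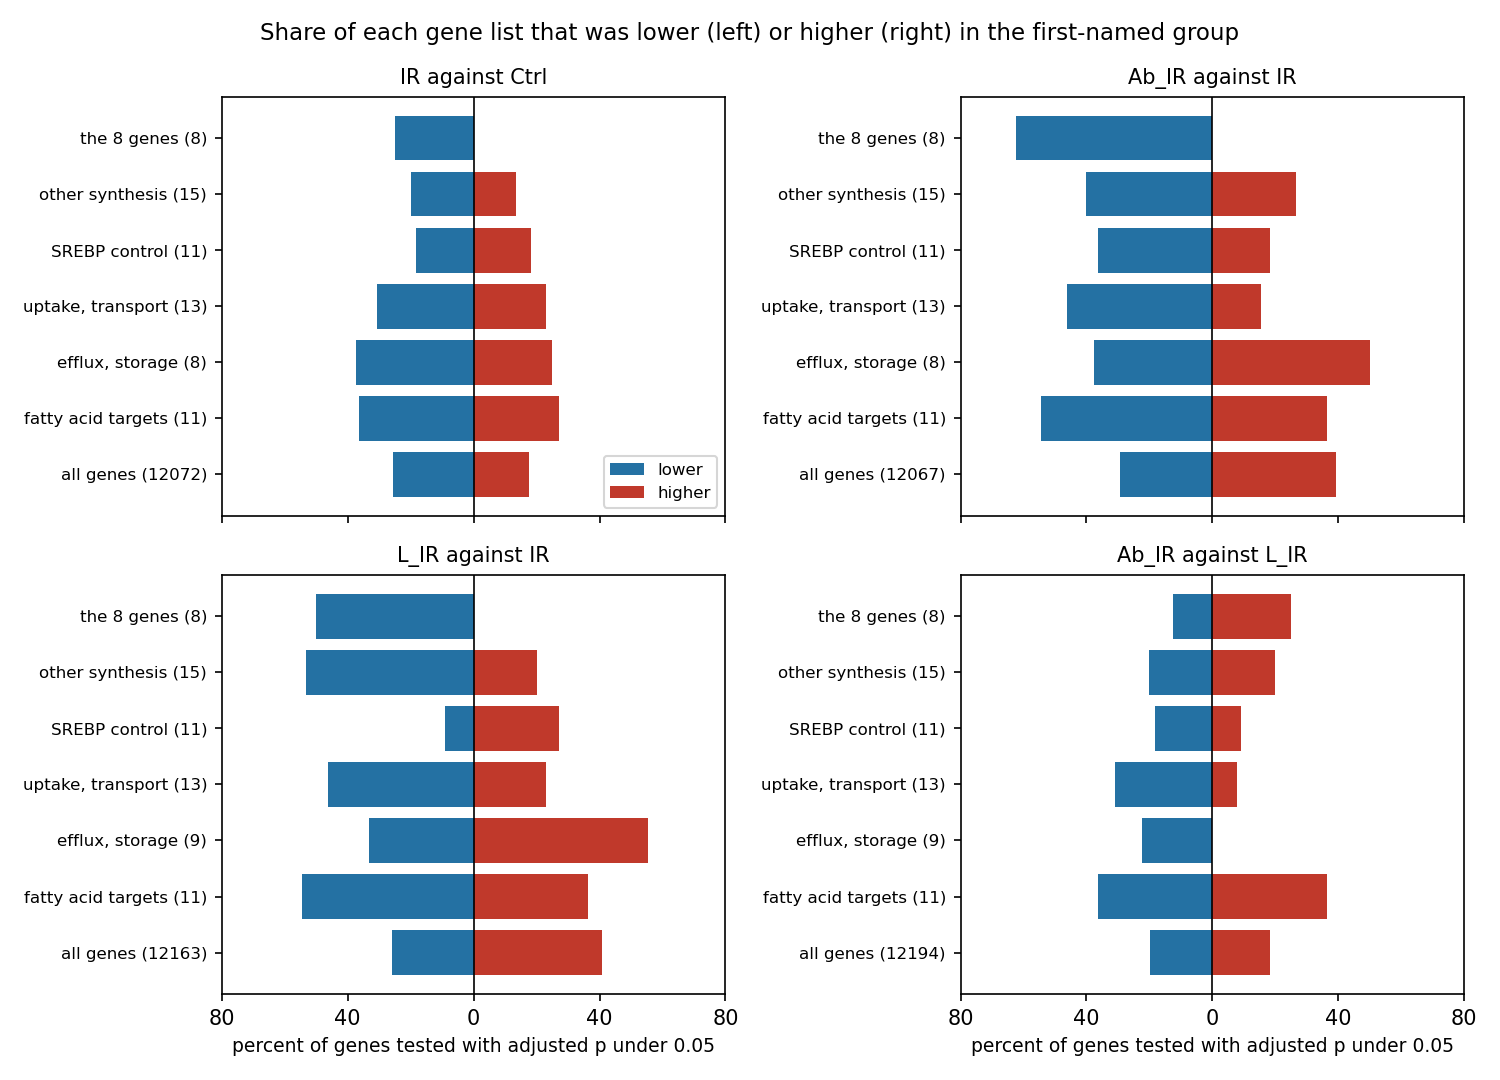
Percent of the tested genes of each list (y axis) that were lower (left of 0) or higher (right of 0) at an adjusted p under 0.05 (x axis), beside all genes tested, in 4 comparisons, 1 per panel. The members reach 5 of 8 lower in Ab_IR against IR and 4 of 8 lower in L_IR against IR, with none higher, whereas 39.4% and 40.8% of all genes were higher there. Abca1 in the efflux list (with L_IR) and Scd1 in the fatty acid list (with IR) were tested only through the group in which they were above 1 FPKM. The bars include them in those comparisons, whereas the counts in the text leave them out.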

How the data were processed

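RNA-seq was made from bone marrow cells sorted as HSCs, with 3 libraries in each of 4 groups that were taken from the titles. Per the labels, RNA was purified with a micro column kit (RNeasy Micro) and stranded poly(A) libraries were prepared (TruSeq Stranded mRNA). The submitters' processing notes name fastp, HISAT2, StringTie, GRCm38 and mm10, whereas the study's methods name RSEM and DESeq2. The annotation is not given in the sources used here. The deposited files list gene names and a value without a named unit, read here as FPKM that the authors computed, since library sums exclude CPM and TPM. Depth is unknown, and 3 against 3 libraries cannot go below p = 0.1 in an exact permutation test.

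The count test of the study was not used, because it needs counts. Instead, linear models with a variance trend were fitted in limma 3.58.1 (R 4.3.3) to log2(FPKM + 1), taking only the libraries of both groups compared. A gene was tested if 3 or more of these libraries had 1 FPKM or more. Genes passed at a Benjamini-Hochberg adjusted p under 0.05 over all genes tested. All adjusted p-values come from limma. The comparisons were IR, Ab_IR and L_IR against Ctrl, Ab_IR and L_IR against IR, and Ab_IR against L_IR. Beside the 8 genes, lists of other synthesis, SREBP control, uptake and transport, efflux and storage, and fatty acid genes and 10 marker lists were used. Members and lists were chosen with earlier results of these data known. Named from each list were the largest rise and fall among genes that passed, plus Srebf2, Scap, Insig2, Mylip, Abca1, Abcg1, Scd2 and Fasn. The 10 genes with the highest Pearson's r with the mean z-scored profile of the members were named as well, among genes of a mean of 10 FPKM or more outside the lists and without predicted-gene names. Some genes that this rule takes are not reported here. Stard4, Mvk, Kit and Nppa were named after their values were seen, as were Pmvk and Mvd in L_IR against IR.

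Alternatives were a pseudocount of 0.1, no filter, quantile normalization, a filter on a mean of 10 FPKM or more, median ratio scaling, rescaling without immunoglobulin genes, no trend, all 12 libraries in one fit, that fit with the Nppa split (over 10 FPKM or not) as a term, the replicate number as a block, rows of a gene name summed (62 names), and leaving out each library. The scripts were tested on simulated data. Gene positions are from GENCODE M21 (GRCm38), to which 96.7% of names matched, and promoter windows from RefSeq. Tables and figures were made with Python 3.11.15, pandas 2.3.3, numpy 2.4.6 and matplotlib 3.10.9.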

Additional observations from a re-analysis of the deposited data

How the results depend on the processing

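Of the values of single members under all alternatives, 667 kept their direction and their side of the threshold, 47 newly passed and 43 no longer passed with the same sign, and 23 changed sign, whether they passed or not. In IR against Ctrl, the members' count of 2 lower became 4 with all 12 libraries in one fit and 4 with the Nppa split as a term. Rescaling without immunoglobulin genes made 1 higher (Fdps 0.28, adjusted p = 0.0334), and quantile normalization moved the members' median to -0.0639. Signs changed under quantile normalization for Fdft1 (0.00341), Lss (0.0992) and Insig1 (0.00702), and without immunoglobulin genes for Insig1 (0.0451). Leaving out single libraries moved Insig1 between -0.163 and 0.0519.

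In Ab_IR against IR, the Nppa term left 1 member lower, a median of -0.145 and 1960 genes called, and changed signs for Fdft1 (0.0674), Sqle (0.00642), Cyp51 (-0.128) and Insig1 (0.124). Without immunoglobulin genes the median was -0.373, Cyp51 was at -0.0158, and 7 members were lower, Fdft1 (-0.277, adjusted p = 0.00636) and Sqle (-0.145, adjusted p = 0.0444) having joined. Quantile normalization gave 6 lower. Sqle moved between -0.0359 and 0.0217 when single libraries were left out. In L_IR against IR, the Nppa term gave 1554 genes called and 1 member higher, with Lss at 0.0693 and Insig1 at 0.273. Quantile normalization gave 8 members lower and a median of -0.269, median ratio scaling put Lss at 0.00152, and leaving out single libraries moved Lss between -0.0478 and 0.0307.

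In Ab_IR against L_IR, 1 member was higher with no filter, with quantile normalization or without trend, and 0 with all 12 libraries in one fit. The Nppa term gave 2 lower, as did median ratio scaling, Insig1 having joined Lss in both (adjusted p = 0.0339 and 0.0396). Without immunoglobulin genes 2 were lower and 0 higher, the median was -0.0443, Hmgcs1 was at -0.1 and Sqle at -0.0919. Leaving out single libraries moved the count of higher members between 0 and 2 and Hmgcs1 between -0.0143 and 0.0525.

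In Ab_IR against Ctrl, all 12 libraries in one fit gave 6 members lower and the Nppa term 5, with 811 genes called. No filter gave 0 lower and 73 genes called, and rescaling without immunoglobulin genes 0 lower (Sqle adjusted p = 0.0872) and 62 called. In L_IR against Ctrl, the Nppa term gave 876 genes called, a median of -0.34 and Insig1 at 0.11, and rescaling without immunoglobulin genes gave 170 called. The members lower went from 4 to 6 with all 12 libraries in one fit, with the Nppa term and with median ratio scaling, to 5 with quantile normalization, and to 3 without immunoglobulin genes or with no filter (Hmgcs1 adjusted p = 0.115 and 0.0684). Leaving out single libraries moved the members lower from 0 to 5 in Ab_IR and 1 to 7 in L_IR, members higher in IR against Ctrl from 0 to 1, and genes called from 51 to 114 in Ab_IR against Ctrl.

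The filter on a mean of at least 10 FPKM tested Idi1 and Fdps alone among the members, which by construction limits their counts. Against Ctrl it gave 405 genes called for IR, 70 for Ab_IR and 206 for L_IR, with 0, 0 and 2 members lower and medians of 0.00276 for IR and -0.502 for L_IR. Against IR it gave 367 genes called for Ab_IR and 302 for L_IR, with 2 members lower in each and medians of -0.358 and -0.505. Between Ab_IR and L_IR it gave 42 genes called, 0 members lower and 1 higher. A pseudocount of 0.1 gave 1512 genes called for Ab_IR and 1294 for L_IR, both against IR, and 165 between Ab_IR and L_IR. The share of passing genes that were higher moved from 40.7% to 51.4% in IR against Ctrl under quantile normalization, and without immunoglobulin genes from 69.0% to 53.9% in Ab_IR against Ctrl and from 53.8% to 65.9% in L_IR against Ctrl. The cause was not tested for any of these changes.

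Replicate numbers were shared between groups but did not pair the libraries: over 18 pairs of the same number, the correlation of deviations from the group means was -0.269 to 0.208 and 2 pairs were over 0.1. With the replicate number as a block, 6 members were lower in Ab_IR against IR, 0 were higher in Ab_IR against L_IR, 0 were lower in Ab_IR against Ctrl and 2 were lower in L_IR against Ctrl. FPKM without counts, 3 libraries a group and the unexplained split by Nppa limit what these values can show, and members differ between groups by less than 1 on the log2 scale throughout.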

Other observations

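Genes of cholesterol efflux and storage, and fatty acid genes, are given here by list. Beside their counts, 25.5% of all genes were lower and 17.5% higher in IR against Ctrl, 29.4% and 39.4% in Ab_IR against IR, 26.0% and 40.8% in L_IR against IR, 19.8% and 18.2% in Ab_IR against L_IR, 0.651% and 1.45% in Ab_IR against Ctrl, and 4.08% and 4.76% in L_IR against Ctrl. Ranks are on the log2(FPKM + 1) scale, which shrinks changes of low genes, and counts cover genes that reached 1 FPKM in a library of both groups compared. This leaves out Abca1, an exporter that reached 1 FPKM in L_IR alone (mean 1.153 FPKM against 0.647 in Ctrl, 0.66 in IR and 0.733 in Ab_IR). Of the efflux and storage genes, 2 of 8 rose and 3 fell in IR against Ctrl (median log2 fold change -0.26). Soat1, which esterifies cholesterol for storage, rose most (0.83, adjusted p = 0.00059), and the exporters Abcg4 (-1.96, adjusted p = 8.83e-05) and Abcg1 (-0.41, adjusted p = 0.01401) fell, Abcg4 with the largest fall. In Ab_IR against IR, 4 of 8 rose and 3 fell (median 0.30), with Abcg4 the largest rise (1.88, adjusted p = 6.55e-07), Abcg1 up (0.58, adjusted p = 6.74e-05) and Soat1 the largest fall (-0.85, adjusted p = 1.44e-06). In L_IR against IR, 4 of 8 rose and 3 fell (median 0.31). Apoe, a lipoprotein component, rose most (1.81, adjusted p = 0.000479), Abcg1 rose (0.53, adjusted p = 0.000249), and Soat1 fell most (-0.69, adjusted p = 3.45e-06). Between the Ab_IR and L_IR groups, 1 of 8 was lower (Soat1, -0.16, adjusted p = 0.0209), none was higher, also at an unadjusted p under 0.05 with limma, and Abcg1 did not pass (0.05, adjusted p = 0.566). Against Ctrl, Apoe alone passed, as higher in Ab_IR (0.84, adjusted p = 0.0384) and L_IR (1.05, adjusted p = 0.00605), while Abcg1 was at 0.16 (adjusted p = 0.359) and 0.11 (adjusted p = 0.539).

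Fatty acid genes known as targets of the sister factor SREBP1 included members that rose and members that fell. Scd1, a desaturase, was under 1 FPKM in all IR libraries (mean 0.783, against 4.64 in Ctrl, 4.55 in Ab_IR and 3.01 in L_IR), so it was tested against IR only through the other group and is left out of these counts and ranks. In IR against Ctrl, 3 of 10 rose and 3 fell (median 0.09), with Fasn, the fatty acid synthase, the largest rise (0.90, adjusted p = 0.00176) and Fads2, a desaturase of polyunsaturated fatty acids, the largest fall (-2.14, adjusted p = 4.95e-05). Scd2, a desaturase of saturated fatty acids, did not pass (0.06, adjusted p = 0.445). In Ab_IR against IR, 3 of 10 rose and 6 fell (median -0.34), Fads2 rising most (1.745, adjusted p = 4.36e-07), Fasn falling most (-1.245, adjusted p = 2.25e-06) and Scd2 falling (-0.62, adjusted p = 6.21e-06). In L_IR against IR, 3 of 10 rose and 6 fell (median -0.23), Fads2 rising most (1.55, adjusted p = 1.04e-06), Scd2 falling most (-0.67, adjusted p = 1.24e-06) and Fasn falling (-0.57, adjusted p = 1.03e-05). Between Ab_IR and L_IR, where Scd1 is included, 4 of 11 were higher and 4 lower (median 0.05), Scd1 being the largest upwards (0.47) and Fasn downwards (-0.67), and Scd2 did not pass (0.05, adjusted p = 0.3115). Against Ctrl, Scd2 was the 1 gene that passed in Ab_IR (-0.56, adjusted p = 0.0115) and had the largest of 3 falls in L_IR (-0.61, adjusted p = 0.00175), whereas Fasn passed in neither (-0.34, adjusted p = 0.219, and 0.33, adjusted p = 0.1605). The same shifts of cell type markers stand beside these values, and their part was not tested.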
